A study of Mus musculus with 4 samples.

Results

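The Schlafen genes are a family of growth-regulatory and interferon-inducible genes, and 4 of them, Slfn1, Slfn2, Slfn5 and Slfn8, were followed here by name among the 33696 genes of the expression matrices. They were measured in sorted mouse thymocytes by droplet single-cell RNA sequencing, in 1 library per genotype. The library called WT came from Cd4Cre mice, which carry Cre recombinase under Cd4 control and have intact Cgas, and the library called Cgas KO came from Cd4Cre Cgasfl/fl mice, in which the same Cre also deletes floxed Cgas; this gene encodes cGAS, a sensor of DNA in the cytosol. Both groups therefore carried Cd4Cre. The labels give no age, no sex and no number of mice per library. The sample titles give the sort as CD4+CCR7+ and the protocol as CCR7+, CCR7 being a chemokine receptor that guides maturing thymocytes into the medulla.

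Among mouse Schlafen proteins, Slfn1 and Slfn2 belong to a short form. Slfn5, Slfn8 and Slfn9 belong to a long form with a helicase-like region at the C-terminus. The founding members were described as genes whose level changes while thymocytes mature and T cells leave quiescence, and loss of Slfn2 function leaves mouse T cells unable to stay quiescent. Several family members are induced by type I interferon, which is also the output of the pathway that cGAS starts when it binds DNA and signals through the adaptor STING.

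The 4 genes lie in 1 cluster on chromosome 11 of the mouse genome. In RefSeq's annotation of GRCm38.p6, the assembly behind the mm10 build that the submitters' processing notes name, Slfn5 (ENSMUSG00000054404) spans chr11:82951349-82964850, Slfn8 (ENSMUSG00000035208) spans chr11:83002125-83020810, Slfn2 (ENSMUSG00000072620) spans chr11:83065112-83070678 and Slfn1 (ENSMUSG00000078763) spans chr11:83116820-83122670. Slfn9 and Slfn10-ps lie on either side of Slfn8, and Slfn4, Slfn3 and Slfn14 lie beyond Slfn1. The 250 bases before a transcript start of each member are shown, from the RefSeq table that held all 4, because the 4 levels moved together with Isg15, and because the windows differ in the letters of the interferon-stimulated response element. They run 5′ to 3′ on the gene's own strand, and capitals mark a match to the core of that element, GAAA followed by any 2 bases and GAAA, on either strand.
Slfn1, chr11:83116570-83116819, plus strand: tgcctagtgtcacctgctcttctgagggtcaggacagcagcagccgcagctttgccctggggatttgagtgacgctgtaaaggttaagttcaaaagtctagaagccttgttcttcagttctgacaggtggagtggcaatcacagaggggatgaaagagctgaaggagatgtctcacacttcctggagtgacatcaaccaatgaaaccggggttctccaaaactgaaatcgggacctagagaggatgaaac
Slfn2, chr11:83064862-83065111, plus strand: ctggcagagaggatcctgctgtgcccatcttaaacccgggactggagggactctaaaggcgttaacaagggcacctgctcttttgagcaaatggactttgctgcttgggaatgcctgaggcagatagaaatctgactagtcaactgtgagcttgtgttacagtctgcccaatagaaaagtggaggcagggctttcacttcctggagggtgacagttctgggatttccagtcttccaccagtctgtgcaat
Slfn5, chr11:82951852-82952101, plus strand: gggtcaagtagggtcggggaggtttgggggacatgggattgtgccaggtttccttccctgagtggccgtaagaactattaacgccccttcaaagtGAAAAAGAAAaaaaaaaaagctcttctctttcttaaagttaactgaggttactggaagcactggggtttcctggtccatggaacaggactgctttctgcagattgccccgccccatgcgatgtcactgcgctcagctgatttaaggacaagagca
Slfn8, chr11:83020811-83021060, minus strand: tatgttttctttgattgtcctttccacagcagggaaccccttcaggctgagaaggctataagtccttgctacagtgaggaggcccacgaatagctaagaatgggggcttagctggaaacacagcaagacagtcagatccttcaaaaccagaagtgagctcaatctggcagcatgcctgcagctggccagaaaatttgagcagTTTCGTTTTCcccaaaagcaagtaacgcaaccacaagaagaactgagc

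The Slfn5 window held GAAAAAGAAA on the gene's strand, at 155 to 146 bases before the start, and the Slfn8 window held TTTCGTTTTC, the same motif read on the opposite strand, at 48 to 39 bases before it. A second RefSeq start of Slfn8 has the same site at 136 to 127 bases before it. The Slfn9 window held TTTCGTTTTC as well, at 45 to 36 bases before its start. Neither the Slfn1 nor the Slfn2 window held the motif, which was present in 978 of 32851 RefSeq windows of this length (2.98%). The interferon-gamma-activated sequence, TTC followed by any 3 bases and GAA, was in none of the 4 members' windows and in 2306 of the 32851 (7.02%). The Slfn8 window shown and the Slfn9 window were 80.2% identical over an alignment of 262 positions, against 49.7% for Slfn5 and Slfn8 and 51.0% for Slfn1 and Slfn2. For the window of the second Slfn8 start, identity to Slfn9 was 40.9%. That window is shifted along the same stretch, and the 2 overlapping Slfn8 windows gave only 47.9% with each other. A shift thus lowers the identity of whole windows. Slfn1 and Slfnl1, a gene on chromosome 4, also gave 47.9%, so values near these mark neither likeness nor its absence. The Slfn5 window lies inside the annotated span of the gene, before an internal transcript start. These are matches of letters, and binding was not measured. Whether the motif bears on the levels was not tested.

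Barcodes with at least 2000 unique molecular identifiers (UMIs), at least 500 genes and at most 10% mitochondrial UMIs were kept. This left 12929 WT barcodes with 75001049 UMIs (median 4943) and 14381 Cgas KO barcodes with 75605391 UMIs (median 4507). Of these, 276 barcode sequences occurred in both libraries (2.14% of WT and 1.92% of Cgas KO). Barcodes were placed in states by single genes. Isg15-high barcodes, with at least 3 UMIs of the interferon-induced gene Isg15 and at least 5 per 10000, were set aside first and numbered 1717 in WT and 1654 in Cgas KO. The rest were then taken in order as Foxp3+ (458 and 352), Rag1+ (510 and 470), Cd8 lineage, meaning at least 2 Cd8a and Cd8b1 UMIs and no Cd4 UMI (1190 and 1205), S1pr1+ (3411 and 3981) and Itm2a+ S1pr1-, meaning at least 2 Itm2a UMIs and no S1pr1 UMI (4048 and 4736). Rag1 marks the double-positive stage, Itm2a the freshly selected semi-mature stage, S1pr1, an egress receptor, the mature stage and Foxp3 the regulatory T cell lineage. A level is a gene's UMI count scaled to the UMI total of the same barcodes (CPM), and since each UMI stands for 1 transcript end, it is not divided by gene length. The 95% intervals are exact, treat UMIs as independent and describe counting error alone. With 1 library per genotype no difference between genotypes has a replicate check and no test was possible.

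The states were checked against a few stage markers. Rag2 and Dntt stood at 108 and 811 CPM in WT Rag1+ barcodes and at 118 and 802.5 CPM in Cgas KO, while Ccr7, on which cells were sorted, was lower there (265 and 262 CPM) than over all kept barcodes (617 and 721 CPM). Klf2, which drives S1pr1, stood at 1434 and 1573 CPM in S1pr1+ barcodes. Other listed markers did not peak in the state they were listed for: in WT, Ccr9 and Cd24a, listed as semi-mature, stood at 497.5 and 246.5 CPM in Rag1+ against 281.3 and 71.4 CPM in Itm2a+ S1pr1- barcodes, Il7r, listed as mature, at 333 CPM in Itm2a+ S1pr1- against 324 CPM in S1pr1+ barcodes, and Cd8b1 and Tcf7 were higher in Rag1+ than in Cd8 lineage barcodes (1424 against 810.5 CPM, and 1736 against 988 CPM). Cd8 lineage barcodes, which carried Runx3 at 185 and 199.8 CPM, held no Cd4 UMI by definition, although the sample titles name CD4. Their CD4 protein is not in these data. Cgas stood at 4.49 CPM in WT (337 UMIs) and 2.92 CPM in Cgas KO (221 UMIs). The labels do not say which part of Cgas is deleted, so its UMIs cannot serve as a check of the knockout.

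Each member was higher in S1pr1+ than in Itm2a+ S1pr1- barcodes in both libraries. Slfn1, one of the short forms, stood at 69.96 CPM in WT Rag1+ barcodes, 111 CPM in Itm2a+ S1pr1- barcodes and 279 CPM in S1pr1+ barcodes. In Cgas KO the same states held 61.9, 102 and 286 CPM. Both libraries thus gave the same order, with Slfn1 in S1pr1+ barcodes 2.52-fold (2.41 to 2.64) above Itm2a+ S1pr1- barcodes in WT and 2.79-fold (2.67 to 2.92) in Cgas KO. Against Rag1+ barcodes it was 3.99-fold (3.46 to 4.62) and 4.615-fold (3.94 to 5.44) higher. That last distance was the most dependent on the choices made: it was 6.28-fold in WT with every barcode thinned to 2000 UMIs, and 6.91-fold in Cgas KO with 2 UMIs needed of Rag1 or S1pr1. Where a ratio of or within states is given with thinning, the states were assigned again from the thinned counts.

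Slfn2, the short form needed for T cell quiescence, was present throughout and differed least between states. Its level was 259 CPM in Rag1+, 234 CPM in Itm2a+ S1pr1- and 349 CPM in S1pr1+ barcodes of WT. Cgas KO gave 221, 243.5 and 369 CPM. S1pr1+ barcodes were above Itm2a+ S1pr1- barcodes 1.49-fold (1.44 to 1.545) in WT and 1.51-fold (1.465 to 1.565) in Cgas KO. The 2 earlier states stood in a different order in the 2 libraries, with an Itm2a+ S1pr1- to Rag1+ ratio of 0.904 (0.837 to 0.978) in WT and 1.10 (1.01 to 1.203) in Cgas KO. This difference of order depended on the processing: the Cgas KO ratio was 0.814 with barcodes thinned to 2000 UMIs, 0.927 with a mean over barcodes and 0.9998 with a minimum of 1000 UMIs, while the WT ratio was 0.805 when thinned.

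Slfn5, a long form found in the nucleus, stood at 30.9 CPM in Rag1+, 38.3 CPM in Itm2a+ S1pr1- and 77.0 CPM in S1pr1+ barcodes of WT, and at 25.1, 33.65 and 76.7 CPM in Cgas KO. S1pr1+ barcodes were 2.01-fold (1.855 to 2.18) and 2.28-fold (2.10 to 2.48) above Itm2a+ S1pr1- barcodes. In WT the step from Rag1+ to Itm2a+ S1pr1- was within counting error (1.24, 0.994 to 1.56), and in Cgas KO the ratio was 1.34 with an interval above 1 (1.04 to 1.76). Slfn8, the other long form among the members, stood at 32.7, 25.3 and 60.6 CPM in the same 3 WT states and at 22.7, 22.5 and 51.0 CPM in Cgas KO. For Slfn8 the Itm2a+ S1pr1- level was the lowest of the 3 in WT, and the 2 earlier states did not differ beyond counting error in Cgas KO (0.989, 0.755 to 1.32). S1pr1+ barcodes were 2.395-fold (2.175 to 2.64) above Itm2a+ S1pr1- barcodes in WT and 2.27-fold (2.05 to 2.51) in Cgas KO.

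Read against all genes, 4 of 4 members were at least 1.2-fold higher in S1pr1+ than in Itm2a+ S1pr1- barcodes in both libraries, where 14% of tested genes were in WT and 13.3% in Cgas KO. The median log2 ratio of the members was 1.11 in WT and 1.16 in Cgas KO, against -0.08 and -0.07 over all genes tested. Against Rag1+ barcodes 4 of 4 were higher in both libraries, where 20% and 23% of tested genes were.

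**Figure D1:**
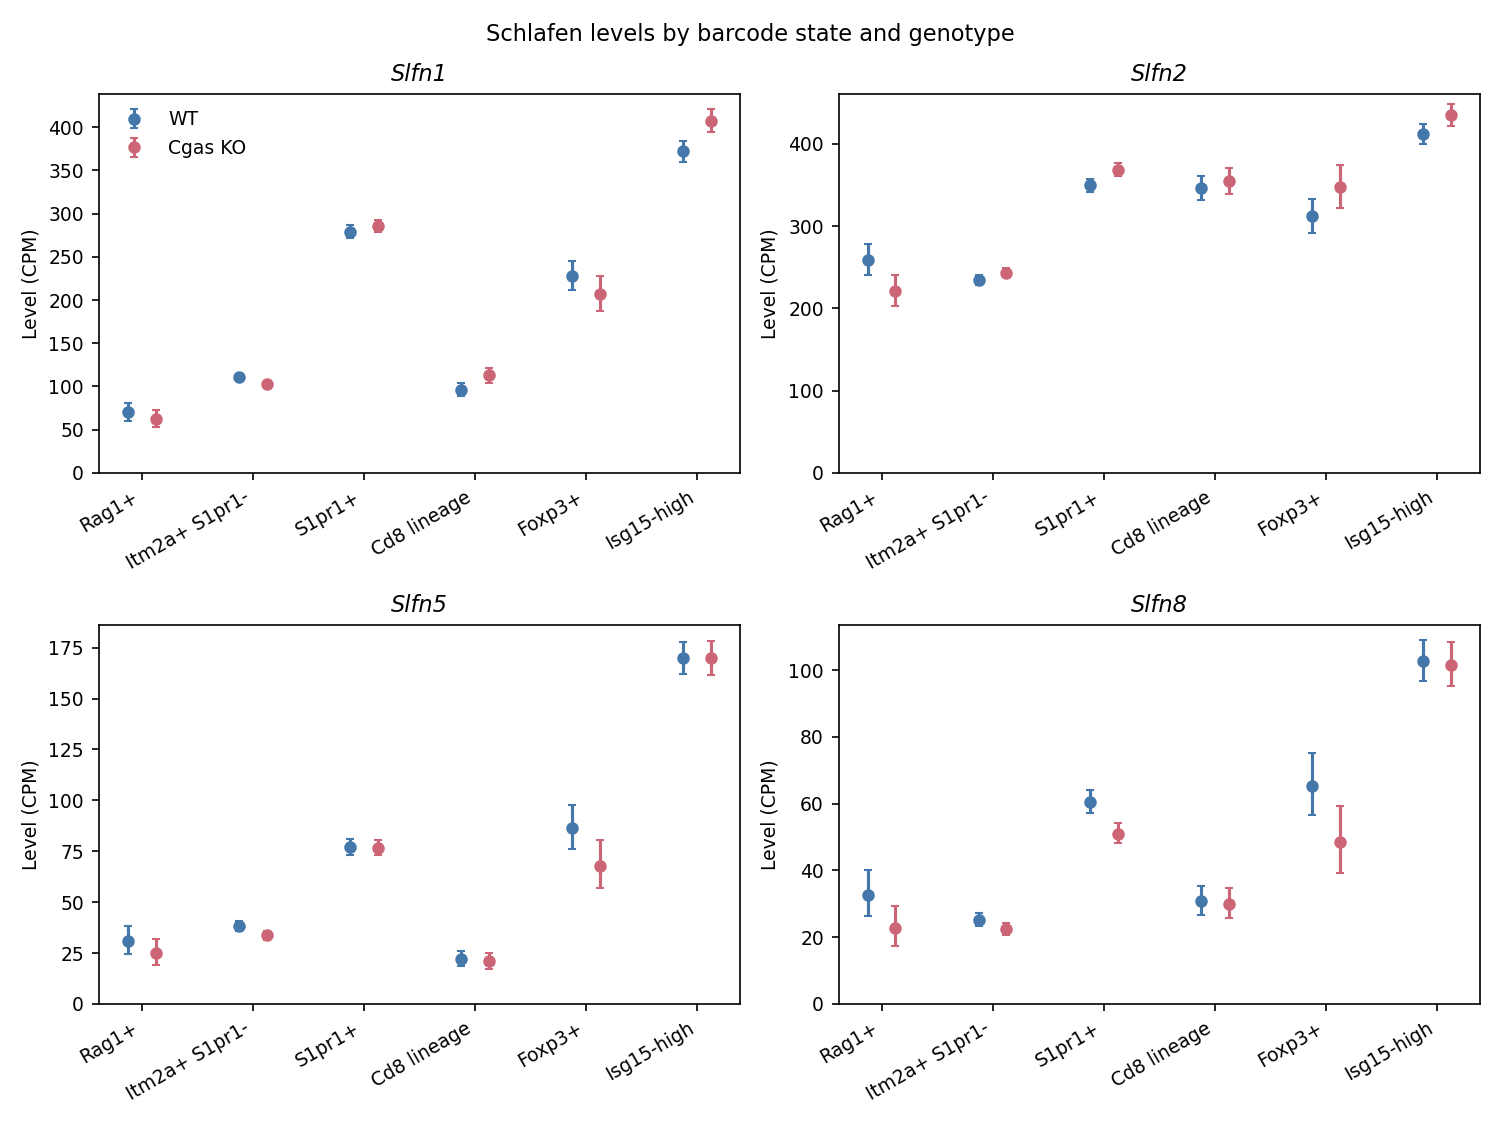
Level of each Schlafen gene (CPM, linear axis from 0) in 6 barcode states of the WT and Cgas KO libraries, with exact 95% Poisson intervals for counting error. Levels are higher in S1pr1+ than in Itm2a+ S1pr1- barcodes for each gene, Slfn5 is lowest in Cd8 lineage barcodes at 22.2 and 20.8 CPM, and Isg15-high barcodes hold the highest level of each gene.

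The Cd8 lineage barcodes separated Slfn2 from the other members. Slfn1 stood there at 96.0 in WT and 113 CPM in Cgas KO, 0.344 (0.316 to 0.374) and 0.395 (0.364 to 0.428) of its S1pr1+ level. Slfn5 stood at 22.2 and 20.8 CPM, 0.288 (0.2405 to 0.343) and 0.272 (0.224 to 0.327) of that level. Slfn8 stood at 30.7 and 29.97 CPM, 0.507 (0.433 to 0.591) and 0.587 (0.498 to 0.690) of it. Slfn2, by contrast, stood at 346 and 354.5 CPM, within counting error of its S1pr1+ level (0.990, 0.943 to 1.04, and 0.961, 0.915 to 1.01). So 3 of 4 members were at least 1.2-fold lower in Cd8 lineage than in S1pr1+ barcodes, where 19.8% of tested genes were in WT and 18.3% in Cgas KO. Cd8 lineage barcodes were chosen without regard to S1pr1, and their mature CD4 markers summed to 1539 and 1664 CPM against 3891 and 4111 CPM in S1pr1+ barcodes. Part of that gap is fixed in advance, because the sum counts S1pr1 itself, at 35.4 and 39.96 CPM against 384 and 429 CPM. It also counts Ccr7, on which cells were sorted. The part of stage in the lower levels was not tested.

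Foxp3+ barcodes held levels nearer to those of S1pr1+ barcodes than Cd8 lineage barcodes did for 3 of 4 members, and the mature CD4 markers in them, S1pr1 included, summed to 3712 in WT and 3914 CPM in Cgas KO. Slfn1 was the 1 member of 4 that was at least 1.2-fold lower, at 228 in WT and 207 CPM in Cgas KO, or 0.8165 (0.753 to 0.884) and 0.723 (0.653 to 0.8001) of its S1pr1+ level. With barcodes of other cell type markers left out, the WT value was 0.8425, which no longer passed 1.2-fold. In the same comparison 17% of tested genes were lower in WT and 20% in Cgas KO, so the count for the members was near that of all genes. Slfn2 stood at 312 and 347 CPM, 0.892 (0.832 to 0.955) and 0.941 (0.869 to 1.02) of that level. Slfn5, at 86.5 and 67.9 CPM, and Slfn8, at 65.4 and 48.5 CPM, did not differ from S1pr1+ barcodes beyond counting error in either library, but the Slfn5 ratio in Cgas KO was 0.709 with thinning to 2000 UMIs and 0.694 with 2 UMIs needed of Foxp3 or S1pr1.

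Isg15-high barcodes held the highest level of each member in both libraries. Slfn5 stood at 169.9 in WT and 169.7 CPM in Cgas KO, against 53.9 and 51.1 CPM in all Isg15-low barcodes, a difference of 3.15-fold (2.98 to 3.34) and 3.32-fold (3.12 to 3.525). Slfn8 stood at 103 and 102 CPM against 41.2 and 35.9 CPM, or 2.495-fold (2.32 to 2.68) and 2.835-fold (2.63 to 3.06). For Slfn1 the levels were 372 and 407 CPM against 176 and 176 CPM, or 2.12-fold (2.04 to 2.19) and 2.31-fold (2.23 to 2.40). Slfn2 showed the smallest difference, with 412 and 435 CPM against 296 and 307 CPM, or 1.39-fold (1.345 to 1.44) and 1.42-fold (1.37 to 1.47). In both libraries 4 of 4 members were at least 1.2-fold higher in Isg15-high barcodes, where 5.7% of tested genes were in WT and 6.5% in Cgas KO. Their median log2 ratio was 1.19 in WT and 1.34 in Cgas KO, against -0.05 over all genes tested in each library.

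The same barcodes held 14.03% of all UMIs in WT and 12.2% in Cgas KO. They held 34.0% and 31.5% of the Slfn5 UMIs, 28.9% and 28.2% of the Slfn8 UMIs, 25.7% and 24.2% of the Slfn1 UMIs, and 18.5% and 16.4% of the Slfn2 UMIs. Isg15-high barcodes made up similar shares of most stages, 14.1% and 12% of Itm2a+ S1pr1- barcodes, 13.8% and 12.02% of S1pr1+ barcodes and 13.6% and 11.8% of Cd8 lineage barcodes. They were fewer among Rag1+ barcodes (3.77% and 3.69%) and among Foxp3+ barcodes (10.9% and 6.88%).

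The difference was also present within each stage. When Isg15-high barcodes were compared with Isg15-low barcodes of the same status, the member was higher with an interval above 1 in 39 of 40 comparisons of 4 genes, 5 stages and 2 libraries. The exception was Slfn2 in Cgas KO Foxp3+ barcodes, where 26 Isg15-high barcodes gave 340 CPM against 347 CPM (0.979, 0.710 to 1.32). The 40 comparisons share 4 genes and 2 libraries, and the share of all genes passing this rule within stages was not counted. In S1pr1+ barcodes Slfn5 stood at 199.7 in WT and 202 CPM in Cgas KO when Isg15-high, 2.59-fold (2.37 to 2.84) and 2.63-fold (2.40 to 2.88) above the rest. In Cd8 lineage barcodes, where Slfn5 was otherwise lowest, it reached 96.9 and 118 CPM, 4.365-fold (3.35 to 5.675) and 5.65-fold (4.29 to 7.44) above the rest. Few Rag1+ barcodes were Isg15-high, 20 in WT and 18 in Cgas KO, and Slfn1 stood there at 268 and 374 CPM, 3.83-fold (2.70 to 5.33) and 6.04-fold (4.27 to 8.42) above the rest.

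**Figure D2:**
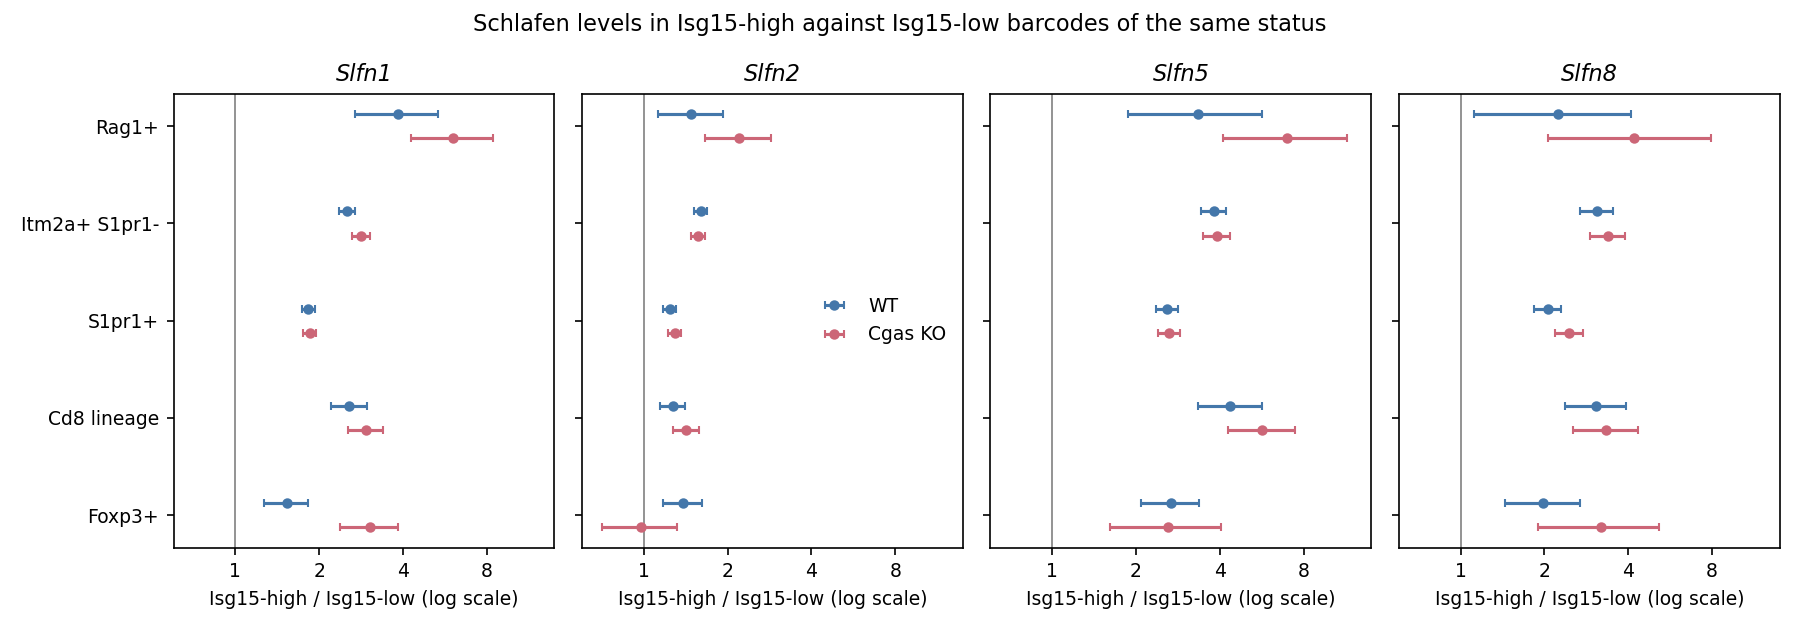
Ratio of each Schlafen gene's level between Isg15-high and Isg15-low barcodes of the same stage (log axis; exact 95% intervals for counting error; the grey line marks a ratio of 1), for the WT and Cgas KO libraries. The points lie above 1 in 39 of 40 comparisons, and the exception is Slfn2 in Cgas KO Foxp3+ barcodes at 0.979.

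Deeper barcodes reach 3 Isg15 UMIs more easily, so all barcodes were also thinned to 2000 UMIs and grouped by their Isg15 UMIs as 0, 1, 2, 3 to 4, and 5 or more. Each member was higher at every step in both libraries, in 8 of 8 series of 5 groups. Slfn5 in WT went from 59.7 CPM in the 9450 barcodes with no Isg15 UMI through 82.5, 159 and 215 CPM to 324 CPM in the 179 barcodes with 5 or more. In Cgas KO it went from 54.0 CPM in 10667 barcodes through 80.3, 151 and 169 CPM to 478 CPM in 204 barcodes. Slfn1 went from 183 to 701 CPM in WT and from 184 to 578 CPM in Cgas KO, and Slfn8 from 40.0 to 139.7 CPM and from 36.3 to 176.5 CPM. Slfn2 had the smallest relative difference between the end groups, from 313 to 553 CPM in WT and from 325 to 622.5 CPM in Cgas KO. Intervals of neighbouring groups overlapped at several of these steps. Thinned to 1000 UMIs, 7 of 8 series were higher at every step, and the exception was Slfn2 in WT, at 606 CPM with 3 to 4 Isg15 UMIs and 594 CPM with 5 or more. At that depth the end groups rested on 32 WT and 42 Cgas KO barcodes, and the Slfn5 level in them was 7.885-fold and 7.499-fold that of barcodes without an Isg15 UMI.

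**Figure D3:**
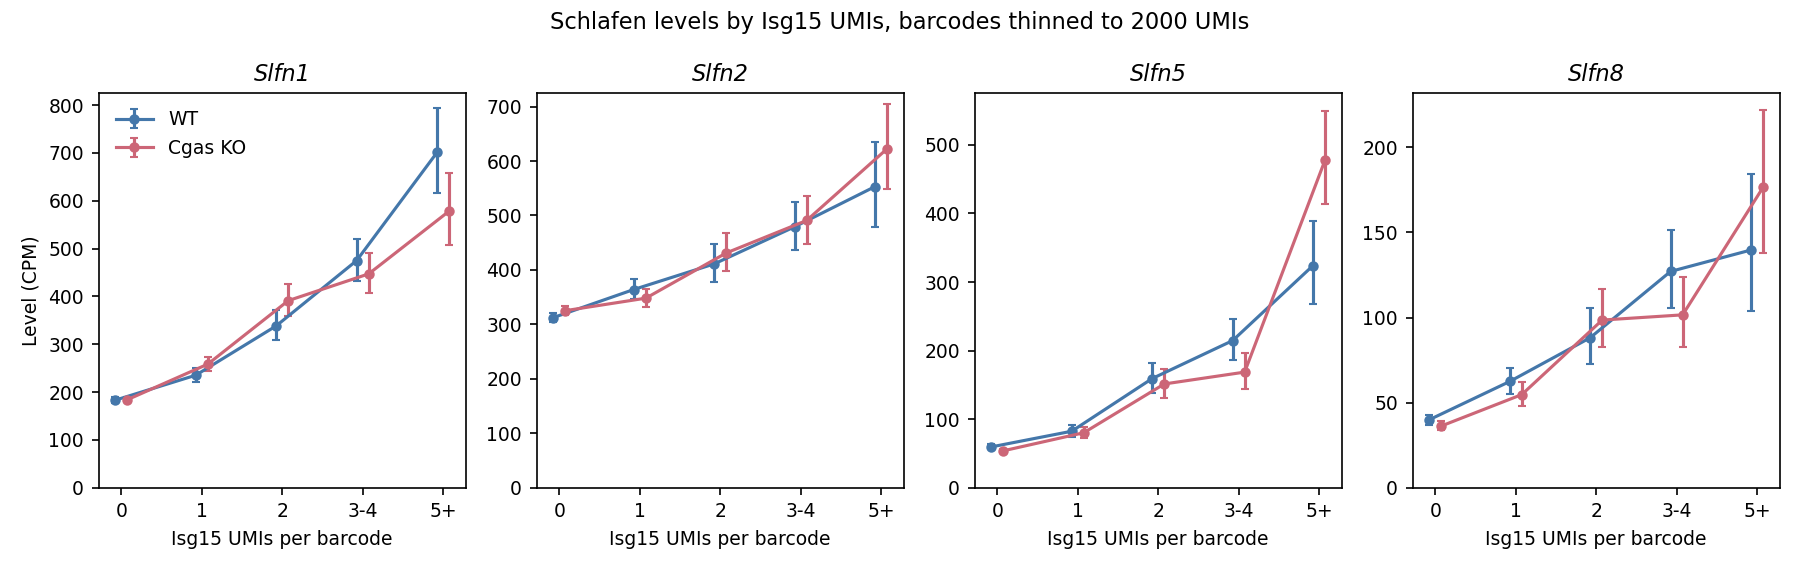
Level of each Schlafen gene (CPM, linear axis from 0) by the number of Isg15 UMIs in a barcode, after thinning each barcode to 2000 UMIs, with exact 95% Poisson intervals for counting error. In each of the 8 lines the level is higher at every step, from 59.7 to 324 CPM for Slfn5 in WT and from 54.0 to 478 CPM in Cgas KO.

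The comparison of genotypes addresses what loss of Cgas changes in the transcriptome of such thymocytes, and over all kept barcodes the 4 members differed little. Slfn1 stood at 203 in WT and 204 CPM in Cgas KO, a Cgas KO to WT ratio of 1.01 (0.983 to 1.03). Slfn2 stood at 312.5 and 322.5 CPM (1.03, 1.01 to 1.05). The 2 long forms among the members were lower in Cgas KO. Slfn5 stood at 70.2 and 65.5 CPM (0.934, 0.898 to 0.971), and Slfn8 at 49.85 and 43.9 CPM (0.880, 0.840 to 0.922). Slfn9, a long form that is not among the members, was not lower (1.06, 0.938 to 1.19). None of the 4 members reached 1.2-fold in either direction, where 5.83% of tested genes were lower and 6.07% higher in Cgas KO. In Isg15-low barcodes alone, the ratios were 1.003 for Slfn1, 1.04 for Slfn2, 0.949 for Slfn5 and 0.870 for Slfn8.

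State by state, Slfn5 and Slfn8 were below 1 in 6 of 6 states each, against 3 of 6 for Slfn1 and 1 of 6 for Slfn2. Of these 24 ratios, 8 had an interval below 1, 6 an interval above 1 and 10 an interval that held 1. The same count was not made over all genes, so there is no background to read these counts against. Slfn8 in S1pr1+ barcodes, with 60.6 in WT and 51.0 CPM in Cgas KO, had a ratio of 0.843 (0.776 to 0.915), while Slfn5 there was alike in both, at 77.0 and 76.7 CPM (0.997, 0.930 to 1.07). The erythroid markers in S1pr1+ barcodes, 4 of 4 above 0, summed to 1.69 in WT and 235 CPM in Cgas KO. With barcodes carrying at least 3 UMIs of dendritic, macrophage, B cell or erythroid markers left out, a choice made after seeing the data, the Slfn8 ratio was 0.838. In Isg15-high barcodes Slfn5 and Slfn8 did not differ between libraries beyond counting error, with ratios of 0.999 (0.932 to 1.07) and 0.989 (0.905 to 1.08).

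The ratios farthest from 1 were those of Rag1+ and Foxp3+ barcodes, which held the fewest UMIs. In Rag1+ barcodes 2 of 4 members were at least 1.2-fold lower in Cgas KO, Slfn5 (30.9 and 25.1 CPM, ratio 0.812, 0.578 to 1.13, which holds 1) and Slfn8 (32.7 and 22.7 CPM, ratio 0.696, 0.492 to 0.977), where 15.4% of tested genes were. These values rest on 87 and 64 UMIs of Slfn5 and on 92 and 58 UMIs of Slfn8. In the same barcodes 18 of 24 tested interferon-stimulated genes were 1.2-fold lower in Cgas KO and 0 higher, with a median log2 ratio of -0.39 against -0.01 over all genes tested there. Also, 10 of 13 cell cycle genes passed 1.2-fold upwards in Cgas KO, as did 948 of all 7129 genes tested there. Median UMIs were 3398 in WT and 3938 in Cgas KO. The part of cell cycle and depth in the result was not tested. The count of members also changed with the processing, from 1 when barcodes were thinned to 2000 UMIs to 4 with a minimum of 3000 UMIs.

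In Foxp3+ barcodes 2 of 4 members were again at least 1.2-fold lower, Slfn5 (86.5 and 67.9 CPM, ratio 0.785, 0.632 to 0.971) and Slfn8 (65.4 and 48.5 CPM, ratio 0.742, 0.574 to 0.953), where 11% of tested genes were. Thinned to 2000 UMIs, with Foxp3+ barcodes drawn again from the thinned counts, the Slfn8 ratio was 1.002, and that of Slfn5 stayed at 0.745. Dendritic markers in these barcodes, 6 of 7 above 0 in WT and 5 of 7 in Cgas KO, summed to 295 and 148 CPM, with H2-Aa at 42.9 and 2.04 CPM, while Siglech was at 0 in both and Itgax at 0.335 CPM and 0. With barcodes of other cell type markers left out, a choice made after seeing the data, the ratios were 0.747 for Slfn5 and 0.718 for Slfn8. The part of other cell types in these differences was not tested. In the other states no member was 1.2-fold lower in Cgas KO, where 5.14% of tested genes were in Itm2a+ S1pr1-, 5.49% in S1pr1+, 7.84% in Cd8 lineage and 6.47% in Isg15-high barcodes. Nor was any member 1.2-fold higher in Cd8 lineage barcodes, where 8.23% of tested genes were; Slfn1 came nearest, at 96.0 and 113 CPM (1.175, 1.05 to 1.315).

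**Figure D4:**
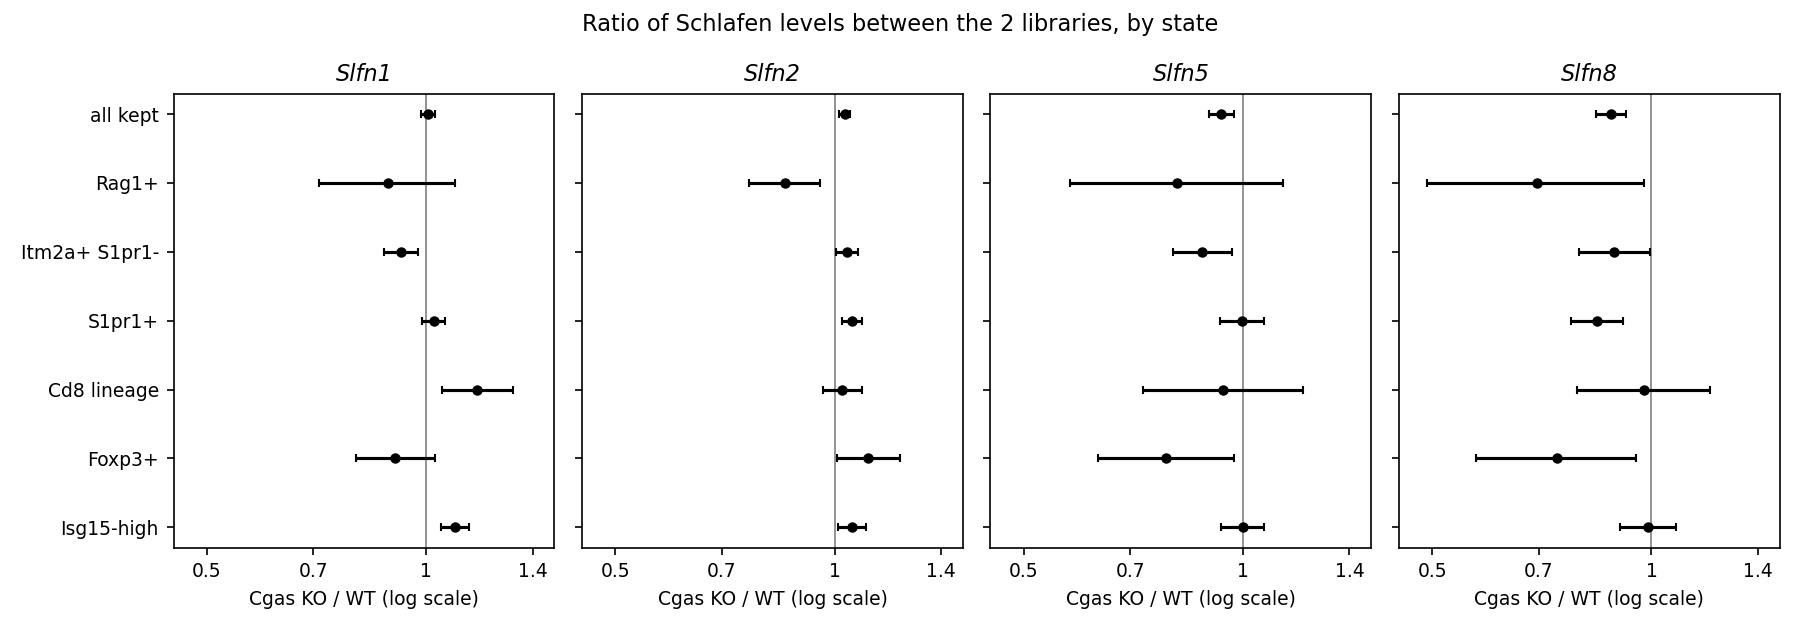
Ratio of each Schlafen gene's level between the Cgas KO and WT libraries (log axis; exact 95% intervals for counting error; the grey line marks a ratio of 1), over all kept barcodes and by state. Slfn5 and Slfn8 lie below 1 in each of the 6 states, and Slfn1 and Slfn2 lie on both sides of 1.

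Barcodes with RNA of the proliferation genes Mki67 and Top2a held less of each member. There were 738 such barcodes in WT and 929 in Cgas KO, with at least 2 UMIs of the 2 genes together, and they were deeper than the rest, with medians of 10725.5 and 9929 UMIs against 4823 and 4382. Slfn5 stood at 16.2 CPM in these WT barcodes and 77.1 CPM in the rest, and at 14.5 and 73.2 CPM in Cgas KO, ratios of 0.210 (0.176 to 0.249) and 0.199 (0.167 to 0.235). The other members were nearer to 1: 0.569 (0.534 to 0.606) and 0.583 (0.550 to 0.618) for Slfn1, 0.711 (0.679 to 0.745) and 0.647 (0.619 to 0.6765) for Slfn2, and 0.688 (0.610 to 0.774) and 0.739 (0.658 to 0.828) for Slfn8. Stage differs between the 2 kinds of barcode, so the comparison was repeated within Itm2a+ S1pr1- barcodes. There Slfn5 stood at 7.11 CPM against 42.8 CPM in WT (0.166, 0.105 to 0.251) and at 11.7 against 37.2 CPM in Cgas KO (0.316, 0.227 to 0.429). Slfn2 was nearest to 1 there, at 0.863 (0.795 to 0.935) and 0.818 (0.757 to 0.883).

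**Figure D5:**
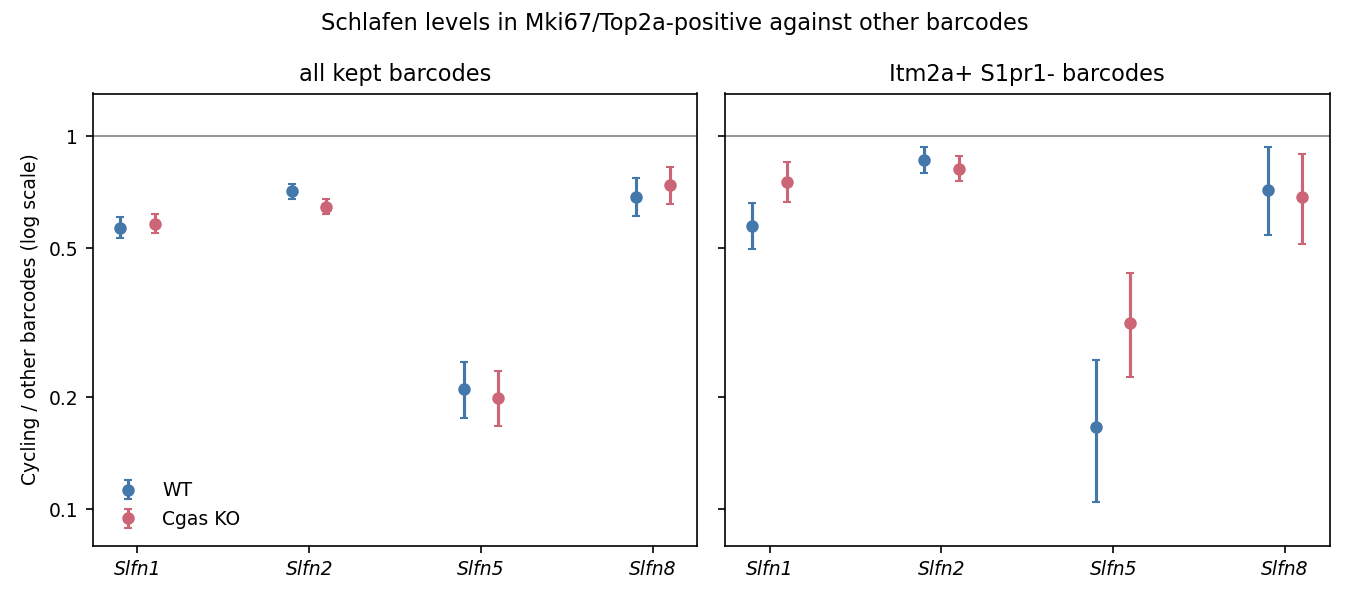
Ratio of each Schlafen gene's level between barcodes with at least 2 Mki67 and Top2a UMIs and the other barcodes (log axis; exact 95% intervals for counting error; the grey line marks a ratio of 1), over all kept barcodes and within Itm2a+ S1pr1- barcodes. All points lie below 1, and Slfn5 lies lowest, at 0.210 and 0.199 over all kept barcodes.

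The share of barcodes with at least 1 UMI was compared after thinning to 2000 UMIs. Slfn2 reached 45.2% of barcodes in WT and 45.1% in Cgas KO, Slfn1 in 29.6% and 29.97%, Slfn5 in 12.4% and 11.7%, and Slfn8 in 9.10% and 8.40%; before thinning the shares were 73.3% and 70.2%, 51.65% and 48.7%, 24.5% and 21.9%, and 21.8% and 17.7%. After thinning, all 4 were detected together in 0.719% and 0.723% of all barcodes, and in 3.20% and 3.39% of Isg15-high barcodes. Free RNA also held these genes: in barcodes with at least 20 and under 200 UMIs Slfn1 stood at 287 in WT and 243 CPM in Cgas KO, Slfn2 at 380.4 and 362 CPM, Slfn5 at 82.2 and 74.6 CPM and Slfn8 at 76.7 and 68.1 CPM. These levels were above those of all kept barcodes, and the part of free RNA in the low shares was not tested. No state was known to lack these genes, so the background is bounded only by the lowest share of any state, which is a loose bound: 35.7% and 36.4% for Slfn2 in Itm2a+ S1pr1- barcodes, 8.04% and 9.57% for Slfn1 in Rag1+ barcodes, and for Slfn8 4.35% in Itm2a+ S1pr1- barcodes of WT and 3.83% in Rag1+ barcodes of Cgas KO. For Slfn5 it was 4.03% and 3.65% in Cd8 lineage barcodes (median depths 4736 and 4192 UMIs) against 15.2% and 14.1% in S1pr1+ barcodes (4796 and 4512 UMIs).

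The remaining family members were scarce. Slfn3, a relative of Slfn4, stood at 7.61 in WT and 8.61 CPM in Cgas KO, Slfn9, a long form next to Slfn8, at 7.28 and 7.685 CPM, and the pseudogene Slfn10-ps at 6.84 and 6.56 CPM. Slfn4 had 5 and 7 UMIs in all, Slfn14 5 and 3, and Slfnl1, a gene on chromosome 4, 0 and 3. A count of 0 among the 75001049 WT UMIs allows a Slfnl1 level of at most 0.040 CPM at 3 counts. Slfn3, whose window held no match to the response element, was higher in Isg15-high than in Isg15-low barcodes, at 13.97 against 6.58 CPM in WT and 14.8 against 7.755 CPM in Cgas KO (2.12, 1.75 to 2.57, and 1.91, 1.57 to 2.31). For Slfn9, whose window held a match, the ratio was 1.69 (1.37 to 2.08) in WT. In Cgas KO it was 1.15 (0.899 to 1.46), which holds 1. Slfn9 did not follow the members between stages: it stood at 5.87 CPM in S1pr1+ against 7.93 CPM in Itm2a+ S1pr1- barcodes of WT (0.740, 0.5845 to 0.9335) and at 6.26 against 9.70 CPM in Cgas KO (0.646, 0.521 to 0.798). Slfn8, Slfn9 and Slfn10-ps are similar in sequence, and Slfn5 overlaps the long non-coding gene Slfn5os (67 and 48 UMIs). The labels do not say whether counting used the strand. Nor do they say whether reads shared among these genes were assigned to 1 of them or dropped.

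Gene lists of the same processes are given for comparison. Over all kept barcodes, 2 of 39 interferon-stimulated genes had at least a 1.2-fold higher level in Cgas KO and 8 a lower one, with a median log2 ratio of -0.17 against 0.00 over all genes tested. Of all genes tested, 6.07% were higher and 5.83% lower. Among those farthest from 1 were Mx1, an antiviral GTPase, at 5.37 in WT and 3.73 CPM in Cgas KO (0.694, 0.594 to 0.810), and Oas1a, an RNA sensor, at 13.5 and 9.51 CPM (0.705, 0.640 to 0.776), while Cmpk2 and its neighbour Rsad2 were higher (1.45, 1.29 to 1.64, and 1.37, 1.22 to 1.54). Between Isg15-high and Isg15-low barcodes 37 of the 39 were higher in WT and 38 in Cgas KO, with medians of 1.43 and 1.45. Isg15, which defines the groups, is 1 of them, and 5.7% and 6.5% of all tested genes were higher. None of 15 quiescence genes passed 1.2-fold in that comparison, in either direction or library. Between S1pr1+ and Itm2a+ S1pr1- barcodes 10 of these 15 were higher in each library, S1pr1 itself included, together with 30 of 38 interferon-stimulated genes in WT and 31 of 38 in Cgas KO. Of all genes tested there, 14% and 13.3% were higher. Between genotypes none of the quiescence genes passed 1.2-fold over all kept barcodes; Cdkn1b, a cell cycle inhibitor, stood at 159.6 and 175 CPM (1.10, 1.07 to 1.13). Of 13 cell cycle genes 4 were higher in Cgas KO, Ccnb2, Birc5, Tk1 and Cdk1, with ratios from 1.215 to 1.33. In Cd8 lineage barcodes 11 of the 13 were higher, with a median log2 ratio of 0.44, where 8.23% of tested genes were higher.

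Over the 12 points given by 6 states in 2 libraries, the log2 levels of the members ran together to different degrees. Pearson's r was 0.937 for Slfn5 and Slfn8, 0.930 for Slfn1 and Slfn5 and 0.923 for Slfn1 and Slfn8, and lower for Slfn2, from 0.650 with Slfn5 to 0.820 with Slfn8. The points share 2 libraries, so these values are descriptions. Among 6684 genes with a mean of at least 20 CPM over the points, the profile nearest to that of Slfn5 was Iigp1 (r = 0.986), followed by Ddx60, H2-T24, Phf11b and Ifih1. For Slfn8 it was Trim12a (0.972), then Gbp6, Tgtp1, Iigp1 and Rnf213. For Slfn1 it was the unnamed gene ENSMUSG00000121501 (0.970), then Zc3hav1, H2-T22, Irf7 and Irf9. Slfn2 had no neighbour as near: Tgtp2 came first (0.911), then Idnk, Tgtp1, Morc3 and Psme1.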

How the data were processed

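Gene expression was analysed in 2 libraries, 1 per genotype. The authors deposited unfiltered matrices of UMI counts per gene and barcode, and per the file headers Cell Ranger 8.0.1 wrote them. Their processing notes list mm10, Seurat 5.1.0 and Cell Ranger 7.0, and the 2 versions could not be reconciled. No aligner setting or gene annotation is stated. The TCR tables the authors deposited, with UMI counts per contig, served only to count beta chains. The matrices held 84763106 WT and 87310091 Cgas KO UMIs in 588428 and 586687 barcodes. Barcodes were filtered at 2000 UMIs (1 and 3 removed for under 500 genes, none for mitochondrial share). Doublets were not removed; leaving out barcodes with 2 or more beta chains (1164 and 1377) was an alternative.

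UMIs were summed per library and state, and levels are CPM. Poisson intervals were used for levels, conditional binomial intervals for ratios and Clopper-Pearson intervals for shares. Genes with at least 100 UMIs in both groups together were compared, log2 ratios had 1 CPM added, and 1.2-fold was the size rule. The code was tested on simulated data. Genes were named as members, other Schlafen genes, state-defining genes and Cgas, up to 4 genes per list farthest from a ratio of 1, and the 5 nearest profiles per member; stage markers come from the marker lists. The members, states and lists were chosen with earlier results of these data known. Tools were scipy 1.17.1, pandas 2.3.3 and numpy 2.4.6 under Python 3.11.15 and, for the TMM factors of 1 alternative, edgeR 4.0.16 under R 4.3.3. Promoter windows are RefSeq's. Alternatives changed the UMI minimum, state and Isg15 thresholds, scaling and depth, and left out barcodes with several beta chains, shared barcodes or other cell type markers. The thinned alternative assigned the states again from the thinned counts, whereas the shares of barcodes with a UMI kept the original states.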

Additional observations from a re-analysis of the deposited data

Results flagged for a closer look

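For 2 members the Cgas KO to WT ratio had an interval below 1 in one state and above 1 in another. Slfn1 had a ratio of 0.923 in Itm2a+ S1pr1- barcodes, 1.175 in Cd8 lineage barcodes and 1.095 in Isg15-high barcodes. Slfn2 had a ratio of 0.854 in Rag1+ barcodes, against 1.04 in Itm2a+ S1pr1-, 1.055 in S1pr1+, 1.11 in Foxp3+ and 1.06 in Isg15-high barcodes. The difference between states was not tested, because there was 1 library per genotype. Of these, the Slfn1 ratio in Isg15-high barcodes and the Slfn2 ratios in Rag1+ and Foxp3+ barcodes fell on the other side of 1 when barcodes were thinned to 2000 UMIs. That setting also assigned the states again from the thinned counts, so depth and choice of barcodes changed together.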

How the results depend on the processing

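The 4 genotype ratios over all kept barcodes stayed within the interval of their own value under each of 13 alternatives (52 of 52 values, from 0.873 to 1.04). Alternatives that changed only the state or Isg15 thresholds, or left Isg15-high barcodes in, keep the same barcodes. For these ratios their agreement was fixed in advance. Of 312 values by state, 303 stayed within the interval, 5 moved out of it and 4 whose interval lay on one side of 1 changed sides, all 4 with barcodes thinned to 2000 UMIs: Slfn1 in Isg15-high barcodes (0.905), Slfn2 in Rag1+ (1.055) and Foxp3+ barcodes (0.901), and Slfn8 in Foxp3+ barcodes (1.002). With thinning the states were redrawn as well, so these values do not come from the same barcodes as the main ones. Values whose interval held 1 were not counted as changing sides; of these, Slfn1 in Rag1+ barcodes (0.885) was 1.18 with thinning and 1.1 with a mean over barcodes. The count of members at least 1.2-fold lower in Cgas KO was 2 in Rag1+ barcodes and became 1 with a minimum of 1000 UMIs, with Isg15-high barcodes left in, with thinning and with a mean over barcodes, and 4 with a minimum of 3000 UMIs. In Foxp3+ barcodes it went from 2 to 1 with 2 UMIs needed of Foxp3 and with thinning, in S1pr1+ barcodes from 0 to 1 with a mean over barcodes, and in Cd8 lineage barcodes from 0 to 2 with thinning. The count higher in Cd8 lineage barcodes went from 0 to 1 with shared barcodes left out. These 3 state ratios kept their direction: S1pr1+ over Itm2a+ S1pr1- ranged from 1.425 to 3.13, S1pr1+ over Rag1+ from 1.24 to 6.91, and Isg15-high over Isg15-low from 1.36 to 4.09. Slfn2 in Itm2a+ S1pr1- over Rag1+ barcodes of Cgas KO (1.10) became 0.9998 with a minimum of 1000 UMIs, 0.814 with thinning and 0.927 with a mean over barcodes. The count of members lower in Cd8 lineage than in S1pr1+ barcodes stayed at 3, and that in Foxp3+ barcodes of Cgas KO went from 1 to 2 with 2 UMIs needed of Foxp3, with Isg15-high barcodes left in and with thinning, and that of WT from 1 to 0 with barcodes of other cell type markers left out. Ratios for proliferating barcodes were not recomputed. The causes were not tested. TMM factors were not run for Isg15-high against Isg15-low barcodes. No paired analysis was possible because each genotype had 1 library. Rag1+ and Foxp3+ barcodes had the smallest UMI totals, 2815844 and 2983370 in WT.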
